A study of Mus musculus with 71 samples.

Results

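The comparison described here sets cerebellum RNA of Csbm/m mice (written Csb) fed a high-fat diet against that of Csb mice under caloric restriction, the most and the least generously fed Csb groups of a feeding study. Its 13 arrays were taken by the genotype and diet in their labels, 7 high-fat and 6 restricted, out of 71 in the whole series and 42 in its diet arm. No measured value entered that choice. All were male mice on the C57BL/6 background, put on their diet at 4 months of age for 8 months, and 1 year old when the tissue was taken. The high-fat chow was given freely and drew 60% of its calories from fat, mostly hydrogenated coconut oil, with 16% of calories from carbohydrate and 23% from protein. The restricted mice received the standard AIN-93G chow at 40% restriction. For comparison stood 6 Csb arrays on resveratrol in standard chow (100 mg per kg of chow) and 6 on the freely given standard diet (64% carbohydrate, 19% protein and 17% fat). Wild-type (WT) mice of the same background gave 4 high-fat, 5 resveratrol, 4 restricted and 4 standard-diet arrays. Whether the numbered replicates are different animals is not said in the labels, and p-values here speak only of the spread from array to array.

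CSB is a DNA repair protein that acts where RNA polymerase stalls on damaged DNA, and its loss causes Cockayne syndrome, a disease of growth failure and progressive neurological decline. The annotation used here pairs no probe with Ercc6, the gene of CSB, so the mutated gene itself is not analysed here. Microglia are the resident macrophages of the brain. They sense debris and lipids, engulf dying cells, and under injury or with age switch on genes for phagocytosis, complement and presentation of antigen on MHC class II molecules. Class II molecules are pairs of an α and a β chain that the invariant chain Cd74 escorts to the compartment where they load peptides. A diet rich in fat and poor in carbohydrate, and likewise fasting, raises ketone bodies in the blood, which brain mitochondria can burn in place of glucose.

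The arrays were 1-colour bead arrays, and all levels below are log2 normalized intensities. On the 13 arrays 48.7% to 52.4% of the 25697 probes were detected, and 14883 probes entered the tests. The 9 granule neuron markers tested summed to 37152 to 62653 intensity units (median 50104) on the high-fat arrays and to 11184 to 60033 (median 45680) on the restricted ones. The 6 Purkinje neuron markers summed to 52734 to 81511 on the high-fat and to 26472 to 73669 on the restricted arrays. Restricted arrays 4 and 6 were the lowest for both lists. Choroid plexus markers, a sign of where the tissue was cut, ranged from 1835 to 40170 on the high-fat and from 3716 to 35932 on the restricted arrays. The high-fat arrays also had a lower background (5th percentile of raw intensity, 68.3 ± 2.08 against 72.3 ± 2.29, SD, n = 7 and 6, exact two-sided permutation p = 0.00699, adjusted over 3 array measures 0.0105). Their highest raw intensity was lower as well (38762 ± 3077 against 44299 ± 1544, exact permutation p = 0.00291, adjusted 0.00874), while the share of detected probes was 50.5% ± 1.43 against 49.9% ± 0.910 (exact permutation p = 0.401). Each high-fat array correlated with its group at a median of 0.983 to 0.988, and each restricted array at 0.964 to 0.978, with restricted array 3 lowest and arrays 4 and 6 tied next. The part of these differences between arrays in the results below was tested only by the alternative settings given beside them.

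Between the diets 292 of the 14883 probes were called in Csb cerebellum (1.96%, limma's moderated test, Benjamini-Hochberg adjusted p under 0.05), and 2627 had an unadjusted p under 0.05. Of the called probes 143 were higher on the high-fat diet (0.961%), from 129 named genes, and 149 were lower (1.00%), from 122 named genes. Most changes were small: 13 of the higher and 10 of the lower probes passed 2-fold, and the median change was 1.48-fold for the higher and 1.45-fold for the lower probes. The 2 groups of arrays did not overlap at all for 57 of the higher and 46 of the lower probes. Over all 14883 probes 218 did not overlap (1.46%), 0.793% with the high-fat arrays higher and 0.672% with them lower. Nearest to the threshold, Slc1a2, the main glutamate transporter of astrocytes, differed by -0.71 (adjusted p = 0.0499) and was called, while Sgsm1, at -0.34 (adjusted p = 0.0503), was not. The count was 91 without restricted array 4, 183 without restricted array 3, 189 without restricted array 6, 454 without restricted array 5, 156 without high-fat array 2 and 156 without high-fat array 6. With 2 of the 3 restricted arrays of lowest correlation left out it was 39 without arrays 3 and 4 (32 higher and 7 lower), 61 without 4 and 6 (43 higher and 18 lower) and 82 without 3 and 6 (58 higher and 24 lower). With the brightness of the array as a covariate it was 68 (46 higher and 22 lower), and with its background as a covariate 169 (138 higher and 31 lower).

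Microglial genes stood among the 12 genes with the largest rise on the high-fat diet. In the values that follow, 3 numbers in a row are the lowest, the median and the highest array of a group. Fcrls, a scavenger receptor-like gene of mouse microglia, read 7.45, 7.86 and 8.34 on the high-fat arrays, against 5.66, 6.40 and 6.64 on the restricted arrays. Every high-fat array lay above every restricted one, the difference was 1.53 ± 0.21 (SE of log2 difference, here and below; 2.89-fold, limma adjusted p = 0.000197), and 1 restricted array did not detect the probe. Gpnmb, a membrane glycoprotein of phagocytes that gather lipid and debris in their lysosomes, read 9.29, 9.72 and 9.96 on the high-fat diet and 7.83, 8.43 and 8.85 under restriction. Again the groups did not overlap, and the gene was 2.29-fold higher (difference 1.19 ± 0.17, adjusted p = 0.000219). Clec7a, the β-glucan receptor dectin-1, read 7.13, 7.83 and 8.03 on the high-fat arrays and 5.78, 6.71 and 6.92 on the restricted ones by the probe with the largest difference, again without overlap (1.16 ± 0.19, adjusted p = 0.000817). A second Clec7a probe rose by 0.59 (adjusted p = 0.0301), a call that ended without restricted array 4 or 6 or high-fat array 3, and a further one, which no restricted array detected, differed by 0.63 (adjusted p = 0.0693). Without restricted arrays 4 and 6 the differences of Fcrls, Gpnmb and the first Clec7a probe were 1.64, 1.03 and 0.94, and without arrays 3 and 4 they were 1.39, 1.25 and 1.17, all still called.

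**Figure D1:**
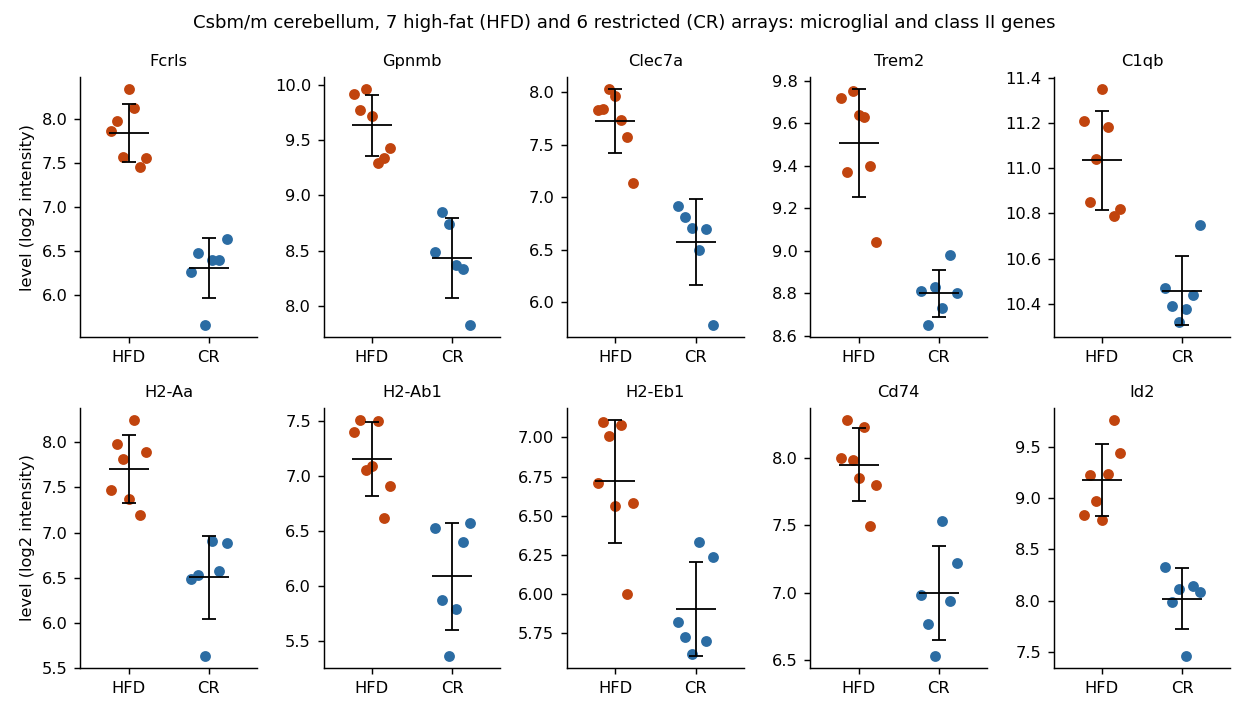
Level (log2 intensity, vertical axes that do not start at 0) of 10 probes on each of the 7 high-fat (HFD, red) and 6 restricted (CR, blue) Csb arrays, where points are arrays and lines with bars the mean ± SD. For Fcrls, Gpnmb, Clec7a, Trem2, C1qb, H2-Aa, H2-Ab1 and Id2 every high-fat array stands above every restricted array, while for H2-Eb1 and Cd74 the lowest high-fat array falls within the range of the restricted arrays.

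Smaller rises were seen in further microglial and complement genes. Trem2, a lipid-sensing receptor of microglia, read 9.04, 9.63 and 9.75 on the high-fat arrays and 8.65, 8.80 and 8.98 on the restricted arrays. The ranges stayed apart and the difference was 0.71 ± 0.14 (limma adjusted p = 0.00578). C1qb, a chain of the complement component that opens the classical pathway, read 10.79, 11.04 and 11.35 on the high-fat diet and 10.32, 10.41 and 10.75 under restriction (0.58 ± 0.11, adjusted p = 0.00256). Its partner chain C1qa differed by 0.53 ± 0.13 (adjusted p = 0.0219), also without overlap. The call for C1qa ended without restricted array 4 and without high-fat array 3, and with the brightness of the array as a covariate those for C1qa and Trem2 ended. Cst7, which encodes cystatin F, an inhibitor of lysosomal proteases, was called higher (adjusted p = 0.0217) although no restricted array and only 3 high-fat arrays detected it, so no fold is given. Its call ended without restricted array 1.

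The lists of microglial genes were not tested against each other. Of 22 tested genes of a disease-associated microglia list, 4 were called higher (Gpnmb, Clec7a, Trem2 and Cst7) and 0 lower, against 101 of 10115 genes with 1 probe each called higher (0.999%) and 105 called lower (1.04%). The median difference of that list was 0.39, against -0.01 over all genes, and 18 of the 22 had a positive difference. An unadjusted limma p under 0.05 was reached by 16 of the 22, 15 of them higher, against 2627 of all 14883 probes. That list was chosen after values were seen, so its count is a description. Of 9 microglia markers, 2 were called higher, C1qb and C1qa, and 7 had a positive difference, with a median of 0.43. With an unadjusted limma p under 0.05 there were 6, all higher. Without restricted arrays 4 and 6 the disease-associated list had 4 called genes and the marker list 1, and without arrays 3 and 4 they had 3 and 1. Of the markers that were not called, Ctss, a protease that trims the invariant chain, differed by 0.62 (adjusted p = 0.0802), Tyrobp, the signalling partner of Trem2, by 0.49 (adjusted p = 0.0529) and Aif1 by 0.43 (adjusted p = 0.181). Cx3cr1 (-0.06, adjusted p = 0.903), P2ry12 (0.33, adjusted p = 0.468) and Tmem119 (-0.20, adjusted p = 0.434), which mark microglia at rest, were not called. In a homeostatic microglia list of 12 genes Fcrls alone was called, 2 had an unadjusted limma p under 0.05, and the median difference was 0.09. The summed level of the 9 microglia markers was 6620, 8252 and 8838 on the high-fat arrays and 5594, 5731 and 6833 on the restricted ones, where restricted array 6 lay above high-fat arrays 6 and 7. In such bulk tissue more cells of a type and more RNA per cell cannot be told apart.

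Single genes of leukocytes were also picked out of the called probes after their values were seen, with no list behind them, and they went both ways. Ccl5, a chemokine, differed by 0.73 (adjusted p = 0.00558), Ly86 by 0.63 (0.0115), Cd84 by 0.62 (0.0121) and Cd53 by 0.52 (0.0406), each with no overlap between groups, although no restricted array and 5 high-fat arrays detected Ccl5. Lyz2, lysozyme of macrophages, was called by one probe (0.84, adjusted p = 0.00508) and not by its brighter probe (0.59, adjusted p = 0.0884). Dok3, an adaptor of myeloid cells, was called lower (-0.73, adjusted p = 0.0146), as was Tnfrsf25, described below. The called Lyz2 probe and Ccl5 were among the 39 probes called without restricted arrays 3 and 4.

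Of 11 tested genes of an MHC class II presentation list, 4 were called higher on the high-fat diet (against 0.999% of all genes) and 0 lower. They were H2-Aa and H2-Ab1, both chains of I-A, H2-Eb1, the β chain of I-E, and Cd74. An unadjusted limma p under 0.05 was reached by 7 of the 11, 6 of them higher. The median difference of that list, which was also chosen after values were seen, was 0.45. Its summed level overlapped between the diets, with 5652, 6419 and 7604 intensity units (lowest, median and highest) on the high-fat arrays and 5956, 6479 and 7881 on the restricted ones. The brightest member by far was Lgmn, a lysosomal protease, which differed by -0.25 (adjusted p = 0.196). The promoters of H2-Aa, which encodes the α chain of I-A, and H2-Eb1, which encodes the β chain of I-E, are shown because class II genes are known for promoter boxes they hold in common. They are the 160 bases before each gene's start, from RefSeq on GRCm38.p6, at chr17:34287824-34287983 on the minus strand for H2-Aa and chr17:34305707-34305866 on the plus strand for H2-Eb1, with the letters found in capitals.
H2-Aa: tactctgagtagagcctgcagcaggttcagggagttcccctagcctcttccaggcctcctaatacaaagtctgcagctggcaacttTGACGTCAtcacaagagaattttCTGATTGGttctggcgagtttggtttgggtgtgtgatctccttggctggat
H2-Eb1: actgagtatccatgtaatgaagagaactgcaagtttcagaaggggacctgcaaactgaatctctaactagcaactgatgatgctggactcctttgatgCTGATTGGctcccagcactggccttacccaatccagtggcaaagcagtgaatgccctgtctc
Both windows hold CTGATTGG, the form of the Y box with CCAAT on the opposite strand, from 51 to 44 bases before the start in H2-Aa and from 62 to 55 in H2-Eb1. The H2-Aa window also holds TGACGTCA, from 74 to 67 bases before the start, a palindrome of the CRE type. The letters were searched on both strands and do not overlap each other. CTGATTGG occurred in 3.25% and TGACGTCA in 1.39% of 32851 windows of 160 bases before RefSeq starts, so a match describes the sequence and shows no binding.

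H2-Aa had the largest class II difference, with 7.19, 7.81 and 8.25 on the high-fat arrays against 5.63, 6.55 and 6.91 on the restricted arrays. No arrays of the groups overlapped, the difference was 1.21 ± 0.19 (2.31-fold, limma adjusted p = 0.000491), and restricted array 3 lay far below the other restricted arrays. H2-Ab1, the β chain of I-A, has 4 probes tested. The probe with the largest difference read 6.62, 7.09 and 7.51 on the high-fat diet and 5.36, 6.14 and 6.57 under restriction (1.07 ± 0.19, adjusted p = 0.00256). Its other probes differed by 0.76 (adjusted p = 0.0348), 0.68 (0.01) and 0.53 (0.0591), so that all had the same direction but 1 was not called. H2-Eb1 read 6.00, 6.71 and 7.10 on the high-fat arrays and 5.62, 5.78 and 6.33 on the restricted ones, of which 1 detected it (0.81 ± 0.17, adjusted p = 0.01). Cd74 read 7.49, 7.98 and 8.28 on the high-fat diet and 6.53, 6.96 and 7.53 under restriction, and both of its probes were called (0.95 ± 0.17, adjusted p = 0.00202, and 0.81, adjusted p = 0.01). H2-Aa, Cd74 and H2-Eb1 were still called without restricted arrays 3 and 4, with differences of 1.09, 0.97 and 0.85, whereas no H2-Ab1 probe was. Without arrays 4 and 6 they differed by 1.40, 1.14 and 1.002, and H2-Ab1 by 1.11, all called. The call for H2-Eb1 ended with the brightness of the array as a covariate. That for the brightest H2-Ab1 probe, which differed by 0.76, ended without restricted array 2, 3 or 4 or high-fat array 1, 2, 3, 5 or 7. The interferon and antigen presentation list of 17 tested genes had the same class II genes as its 3 called members and 0 lower ones, and its class I member H2-D1 differed by 0.41 (adjusted p = 0.195).

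Not all of the genes with large rises belonged to leukocytes. Id2, an inhibitor of helix-loop-helix transcription factors, read 8.78, 9.22 and 9.76 on the high-fat arrays and 7.46, 8.09 and 8.33 on the restricted ones, without overlap (1.16 ± 0.19, limma adjusted p = 0.00077). Its second, brighter probe was also called (0.64, adjusted p = 0.00716), and the first was called in every alternative setting. Of the rest of the 12 largest rises, the calls were less steady. Sycp1, a protein of the meiotic synaptonemal complex, read 6.05, 7.17 and 7.44 on the high-fat diet and 4.59, 5.83 and 6.30 under restriction, where 2 arrays detected it (1.40 ± 0.36, adjusted p = 0.0329). Ebf1, a transcription factor, differed by 1.16 ± 0.32 (adjusted p = 0.0439), Srsf5, a splicing factor, by 1.06 ± 0.29 (0.0476), Kcng4, a modifier subunit of potassium channels, by 1.04 ± 0.28 (0.0452) and the receptor-type phosphatase Ptprr by 1.12 ± 0.29 (0.0342). Those 5 calls ended without restricted array 4 and also without restricted array 6, the arrays with the lowest granule and Purkinje neuron marker sums. They ended too without high-fat array 2, 5, 6 or 7, those for Ebf1, Srsf5 and Kcng4 without restricted array 3, all but that for Ptprr without high-fat array 3, that for Ebf1 without high-fat array 1 and that for Srsf5 without high-fat array 4. Other probes of Srsf5 (0.50, adjusted p = 0.0814), Kcng4 (0.14, 0.866) and Ptprr (0.69, 0.165, and 0.40, 0.485) were not called. Wfdc18, a small secreted protein of the whey acidic protein family, was called (adjusted p = 0.01) while no restricted array and 3 high-fat arrays detected it, and no fold is given.

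Among named genes, the largest falls on the high-fat diet were in genes of the red blood cell lineage. Alas2, the enzyme of the first step of heme synthesis in red cell precursors, read 8.15, 8.67 and 9.48 on the high-fat arrays and 9.71, 10.76 and 11.89 on the restricted arrays. No high-fat array reached the lowest restricted one, and the difference was -2.05 ± 0.50 (4.14-fold lower, limma adjusted p = 0.0218). Its promoter is printed because it carries the recognition letters of GATA factors, which govern red cell genes. It is the 160 bases before the start, chrX:150547257-150547416 on the plus strand of GRCm38.p6, from RefSeq.
Alas2: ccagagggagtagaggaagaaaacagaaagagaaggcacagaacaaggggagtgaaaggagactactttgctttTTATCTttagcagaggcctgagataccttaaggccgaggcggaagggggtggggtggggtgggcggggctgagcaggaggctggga
The capitals, from 86 to 81 bases before the start, read AGATAA on the opposite strand. AGATAA was searched on both strands and found in 6.02% of the 32851 windows, so the match is a description.

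Slc4a1, the band 3 anion exchanger of the red cell membrane, read 6.75, 7.11 and 7.88 on the high-fat diet and 7.47, 9.46 and 10.56 under restriction (-1.77 ± 0.46, 3.40-fold lower, adjusted p = 0.0341). Here 2 of the 6 restricted arrays lay among the high-fat ones. E2f2, a cell cycle transcription factor that is active in late red cell precursors, was at least 1.70-fold lower by a probe that no high-fat array and 5 restricted arrays detected. That probe read 4.92, 5.13 and 5.59 on the high-fat arrays and 6.01, 6.96 and 7.57 on the restricted ones (adjusted p = 0.00256). A second probe read 5.36, 5.74 and 5.92 on the high-fat diet and 6.09, 7.39 and 7.73 under restriction, and it fell as well (-1.48 ± 0.27, adjusted p = 0.00256). Of 17 tested genes of a red blood cell list, chosen after values were seen, these 3 were called lower (against 1.04% of all genes) and 0 higher, and the median difference was -0.20. Hba-a1, a globin gene, differed by 0.00 (adjusted p = 0.99), and the β globin probes Hbb-b2 and Hbb-bt by -1.11 (0.14) and -0.66 (0.212), where near-identical globin copies may share signal. The summed level of 4 blood markers ran from 30215 to 40662 on the high-fat arrays and from 36493 to 44585 on the restricted ones, highest on restricted arrays 3 and 4, and how much blood the tissue held was not tested. The call for Alas2 ended without restricted array 3 or 4 (difference between -2.27 and -1.51 over all settings), and that for Slc4a1 ended without restricted array 2, 3 or 4 or high-fat array 2, 3 or 7. Without restricted arrays 3 and 4 together, limma called 0 of the 17 genes, E2f2 included (adjusted p = 0.0751), with 4 at an unadjusted p under 0.05, and it called 7 genes lower over all. Without arrays 4 and 6 it called E2f2 (adjusted p = 0.0139), and without 3 and 6 E2f2 and Slc4a1 (0.0498), but Alas2 in neither.

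**Figure D2:**
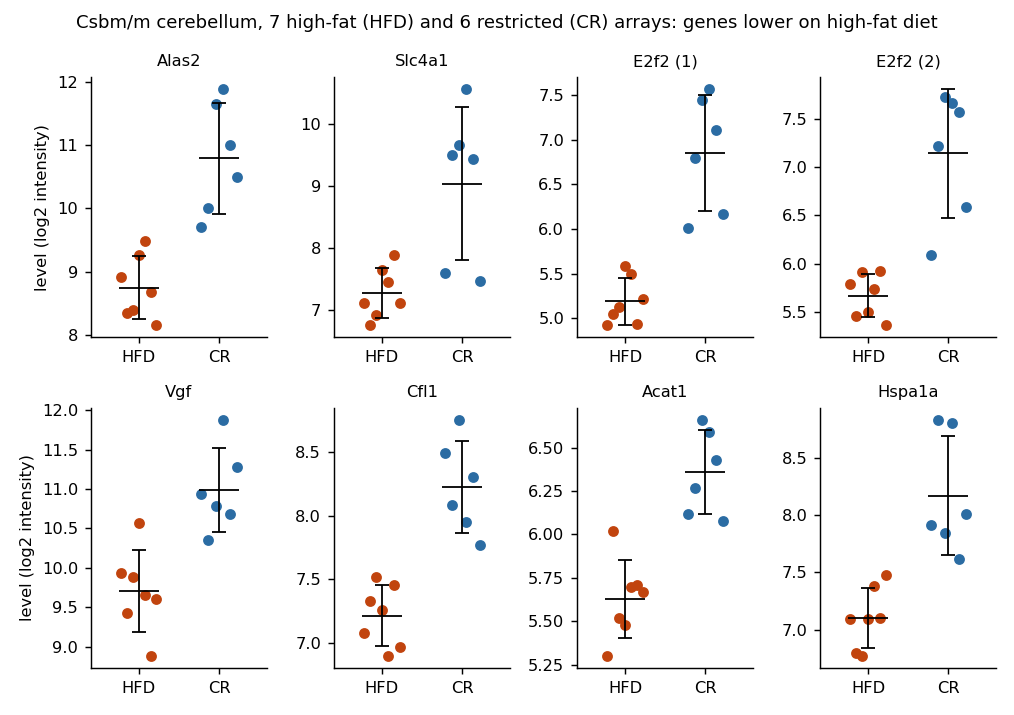
Level (log2 intensity, vertical axes that do not start at 0) of 8 probes on the 7 high-fat (HFD, red) and 6 restricted (CR, blue) Csb arrays, where points are arrays and lines with bars the mean ± SD. The restricted arrays spread widely for Alas2 and Slc4a1, from 7.47 to 10.56 for Slc4a1, while for Cfl1 and Acat1 the high-fat arrays all lie below the restricted ones.

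Apart from blood, the strongest falls were in a mixed set of neuronal, cytoskeletal and stress genes. Vgf, a neuropeptide precursor that neurons make in response to activity and neurotrophins, read 8.88, 9.65 and 10.57 on the high-fat arrays and 10.35, 10.86 and 11.88 on the restricted ones. It was 2.43-fold lower (-1.28 ± 0.27, limma adjusted p = 0.01), with 1 high-fat array inside the range of the restricted arrays. Cfl1, the actin-severing protein cofilin, read 6.90, 7.26 and 7.52 on the high-fat diet and 7.77, 8.19 and 8.75 under restriction (2.01-fold lower, SE of the log2 difference 0.16, adjusted p = 0.000491). Its groups did not overlap and it was called in every alternative setting. Hspa1a, an inducible heat shock protein with a near-identical copy in Hspa1b, read 6.77, 7.09 and 7.48 on the high-fat arrays and 7.62, 7.96 and 8.83 on the restricted ones. That fall (-1.07 ± 0.30, adjusted p = 0.0479) ended in 22 of 28 alternative settings, among them the removal of each high-fat array and of each restricted array but array 5. Tnfrsf25, a death receptor, was called lower (adjusted p = 0.00688), yet no high-fat array and 1 restricted array detected it, and no fold is given.

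Smaller falls completed the named set. Pttg1, or securin, a regulator of sister chromatid separation, differed by -0.86 ± 0.19 (adjusted p = 0.01) and was detected on 1 high-fat array and all 6 restricted arrays. Hsf4, a heat shock transcription factor, differed by -0.85 ± 0.20 (0.0156), Srpk3, a kinase of splicing factors, by -0.81 ± 0.18 (0.0124) and BC051142 by -0.80 ± 0.21 (0.0404). Dnase1l2 fell by one probe (-0.82 ± 0.21, adjusted p = 0.0354) and not by its others (-0.48, 0.225, and -0.42, 0.141). The calls for Hsf4, Srpk3, BC051142 and Dnase1l2 ended without restricted array 4, and those for Hsf4 and BC051142 also without restricted array 6. For BC051142 and Dnase1l2 the removal of restricted array 3 or of high-fat array 2, 3 or 5 ended the call as well, as did that of high-fat array 7 for BC051142 and of restricted array 1 or 2 or high-fat array 4 or 6 for Dnase1l2. Of the 16 called probes with no gene name, ILMN_2703427 (-2.21, adjusted p = 0.0477) and ILMN_2619200 (-2.12, adjusted p = 0.0237) had the largest differences.

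Of 6 tested genes for the use of ketone bodies, 1 was called in each direction. Acat1, the mitochondrial thiolase that splits acetoacetyl-CoA, was at least 1.21-fold lower on the high-fat diet. It read 5.30, 5.67 and 6.02 on the high-fat arrays, none of which detected it, and 6.08, 6.35 and 6.66 on the restricted arrays, of which 5 did (limma adjusted p = 0.000791). Oxct1, which hands coenzyme A to acetoacetate in the step before, was 1.18-fold higher, with 12.02, 12.14 and 12.31 on the high-fat diet and 11.73, 11.89 and 12.07 under restriction (0.24 ± 0.06, adjusted p = 0.0421). These were the 2 called genes of the ketone list, whose median difference was 0.04. Over all genes, 0.999% were called higher and 1.04% lower. The call for Acat1 held in every alternative setting, while that for Oxct1 ended in 18 of 28, among them the removal of restricted array 1, 2, 4 or 5 or of high-fat array 2, 3, 4, 6 or 7.

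Fatty acid oxidation showed 1 called gene of 25 tested. Hadh, the short-chain hydroxyacyl-CoA dehydrogenase, read 6.46, 6.90 and 7.23 on the high-fat arrays and 5.99, 6.23 and 6.53 on the restricted arrays (0.62 ± 0.13, limma adjusted p = 0.0105). The groups overlapped at their edges, and the list as a whole had a median difference of 0.03. In the respiratory chain 4 of 68 genes were called, all higher (against 0.999% of all genes): Ndufb10 (0.52 ± 0.14, adjusted p = 0.0370) and Ndufb2 (0.48 ± 0.09, 0.00378) of complex I, Cox7a2 (0.36 ± 0.10, 0.0409) of complex IV and Atp5e (0.48 ± 0.13, 0.0410) of the ATP synthase. Ndufb2 averaged 11.04 ± 0.13 on the high-fat diet and 10.56 ± 0.13 under restriction (SD), without overlap. Over the 68 genes the median difference was 0.01 and 39 were positive. The calls for Ndufb10, Cox7a2 and Atp5e ended without restricted array 1 or 4 or without high-fat array 2, 5 or 6, and each without some further arrays. With restricted arrays 3 and 4 both left out, limma called 0 genes of these 2 lists, with 4 fatty acid oxidation and 7 respiratory chain genes at an unadjusted p under 0.05.

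Lipid synthesis genes gave no calls by limma. Of 18 cholesterol synthesis genes 0 were called and 4 had an unadjusted p under 0.05, all 4 with a negative difference, and the median difference was -0.13. The lowest p-values of that list were those of Fdps, an enzyme that makes farnesyl diphosphate (-0.32, adjusted p = 0.155), and Lss, which closes the sterol ring (-0.54, 0.129). Of 15 fatty acid synthesis genes 0 were called, with 4 at an unadjusted p under 0.05. Srebf1, the transcription factor that drives the pathway, differed by -0.52 (0.082) and the elongase Elovl6 by -0.38 (0.152).

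Among the remaining pathway lists the calls were few. The nucleotide excision repair list had 1 called gene of 15, Mnat1, a subunit of the kinase module of TFIIH, the repair and transcription factor. It read 10.28, 10.42 and 10.53 on the high-fat arrays and 9.69, 10.01 and 10.07 on the restricted ones, without overlap (0.47 ± 0.10, limma adjusted p = 0.0111), and the call ended without restricted array 4. Heat shock and protein folding had Hspa1a alone of 19. The lists for glucocorticoid response (22 genes), circadian clock (15), NAD metabolism (16), immediate early genes (14), antioxidant defence (16) and insulin, IGF and mTOR signalling (20) had 0 calls by limma, and 6, 3, 2, 1, 4 and 2 of their genes, in that order, had an unadjusted p under 0.05. Their lowest p-values fell to Angptl4 (0.73, adjusted p = 0.0519) and the metallothionein Mt2 (1.08, 0.061) for glucocorticoids, Dbp (0.55, 0.0639) and Npas2 (-0.69, 0.17) for the clock, and Qprt (0.46, 0.104) and Nmnat2 (0.33, 0.241) for NAD. For the other 3 lists they were Klf4 (-0.41, 0.276) and Jun (0.37, 0.306), Slc7a11 (-0.43, 0.146) and Srxn1 (-0.24, 0.169), and Igf1 (0.43, 0.133) and Slc2a4 (-0.50, 0.179). Mt2 had a larger difference than most called genes, with an SE of 0.32, and was called without restricted arrays 3 and 6 (1.54, adjusted p = 0.0164).

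Markers of the other cell types the tissue could hold gave 1 call beyond blood and microglia. Lum, a proteoglycan of the meninges, rose by 0.75 ± 0.19 (limma adjusted p = 0.0260), and 7 of 7 meningeal markers had a positive difference, with a median of 0.16. Its call ended without restricted array 3, 4 or 6. Without restricted arrays 4 and 6 the meningeal median was -0.05, with 3 of 7 positive. It was 0.13 without arrays 3 and 4 and 0.07 without 3 and 6. Median differences were 1.01 for 5 choroid plexus markers, 0.70 for 9 granule neuron markers and 0.52 for 6 Purkinje neuron markers, with 0 of these called by limma and 1 gene of each list at an unadjusted p under 0.05. Without restricted arrays 4 and 6 these medians were 0.78, -0.04 and 0.11, in that order. They were 0.65, 0.73 and 0.54 without arrays 3 and 4, and 0.41, 0.33 and 0.50 without 3 and 6. Brainstem and deep nuclei markers leaned the other way, with a median of -0.45, 2 of 10 positive, 0 called and 3 at an unadjusted p under 0.05. Without restricted arrays 4 and 6 that median was -0.20, with 5 of 10 positive. It was -0.40 without arrays 3 and 4 and -0.50 without 3 and 6. Bergmann glia and astrocyte markers had a median of 0.27, oligodendrocyte markers 0.13, endothelial markers -0.25, pericyte markers 0.05 and oligodendrocyte precursor markers -0.02, all with 0 calls by limma and with 3, 0, 2, 0 and 0 genes at an unadjusted p under 0.05. Of 14 histone genes, a list chosen after values were seen, 3 were called higher, against 0.999% of all genes. They were H3c14 (0.68, adjusted p = 0.0206), H3c13 (0.55, 0.0468) and H2bc6 (0.54, 0.0341), and histone copies are alike enough that their probes may share signal. Without restricted arrays 3 and 4, 3 and 6 or 4 and 6, limma called 0 of the 14. The calls for H3c14 and H3c13 ended without restricted array 4 or 6 or high-fat array 6, that for H3c13 also without restricted array 1 or high-fat array 2, 3, 5 or 7, and that for H2bc6 without restricted array 1, 3 or 6 or high-fat array 2, 4 or 7. Ribosomal protein genes, 51 in number, had 1 call in each direction and a median difference of 0.00.

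The standard-diet arrays of the same genotype give a further level for each gene. Their background averaged 72.9 ± 3.34 and their highest intensity 44214 ± 1054 (SD, n = 6), near the restricted arrays and apart from the high-fat ones. Granule neuron markers summed to 9879 to 50359 and choroid plexus markers to 1320 to 39505 on them. The part of these array differences in the counts that follow was not tested. Both comparisons below share the standard-diet arrays, and their values are set side by side only. Between high-fat and standard diet 2544 probes were called in Csb (17.1%, with 8.43% higher and 8.67% lower on the high-fat diet). Between restricted and standard diet 13 were called (0.0873%, with 0.0134% higher and 0.0739% lower under restriction). Of the 143 probes higher on the high-fat diet than under restriction, the standard-diet mean lay nearer the restricted mean for 106, and of the 149 lower ones for 126. Fcrls, Gpnmb and C1qb were the other way round. Fcrls averaged 7.84 ± 0.33 on the high-fat diet, 6.31 ± 0.34 under restriction and 7.86 ± 0.54 on the standard diet (SD, n = 7, 6 and 6). Its high-fat arrays differed from the standard diet by -0.02 (limma adjusted p = 0.965) and its restricted arrays by -1.55 (0.000175), so the restricted arrays stood apart. Gpnmb differed from the standard diet by 0.11 (0.681) on the high-fat diet and by -1.08 (0.00172) under restriction, and C1qb by 0.01 (0.946) and by -0.56 (0.0164). Clec7a lay between, with 0.60 (0.0279) on the high-fat diet and -0.56 (0.415) under restriction. Against the standard diet Acat1 differed by -0.15 (0.395) on the high-fat diet and by 0.58 (0.0425) under restriction, and Cfl1 by -0.20 (0.392) and by 0.81 (0.0202).

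H2-Aa, Id2 and Vgf lay on the opposite side, since in each the restricted mean stayed near the standard-diet mean. H2-Aa averaged 7.71 ± 0.38 on the high-fat diet, 6.50 ± 0.46 under restriction and 6.75 ± 0.29 on the standard diet. Its high-fat minus standard difference was 0.96 (adjusted p = 0.00128), and its restricted minus standard difference was -0.24 (0.729). Id2 showed 1.45 (1.27e-05) and 0.29 (0.673), and Vgf showed -1.53 (0.00073) and -0.25 (0.809). The Csb resveratrol arrays, on standard chow, averaged 7.37 for H2-Aa, 8.94 for Id2 and 10.02 for Vgf. High-fat and standard-diet means were 9.18 and 7.73 for Id2 and 9.71 and 11.24 for Vgf. In each gene the resveratrol mean lay nearer the high-fat mean, so the shift was not particular to the high-fat diet. Their highest intensity averaged 36084, nearer the high-fat than the standard-diet arrays, and its part here was not tested. Alas2 averaged 8.75 ± 0.50 on the high-fat diet, 10.80 ± 0.88 under restriction and 9.12 ± 0.92 on the standard diet, and neither of its differences from the standard diet was called by limma (-0.38, adjusted p = 0.624, for high-fat and 1.67, 0.295, for restricted).

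**Figure D3:**
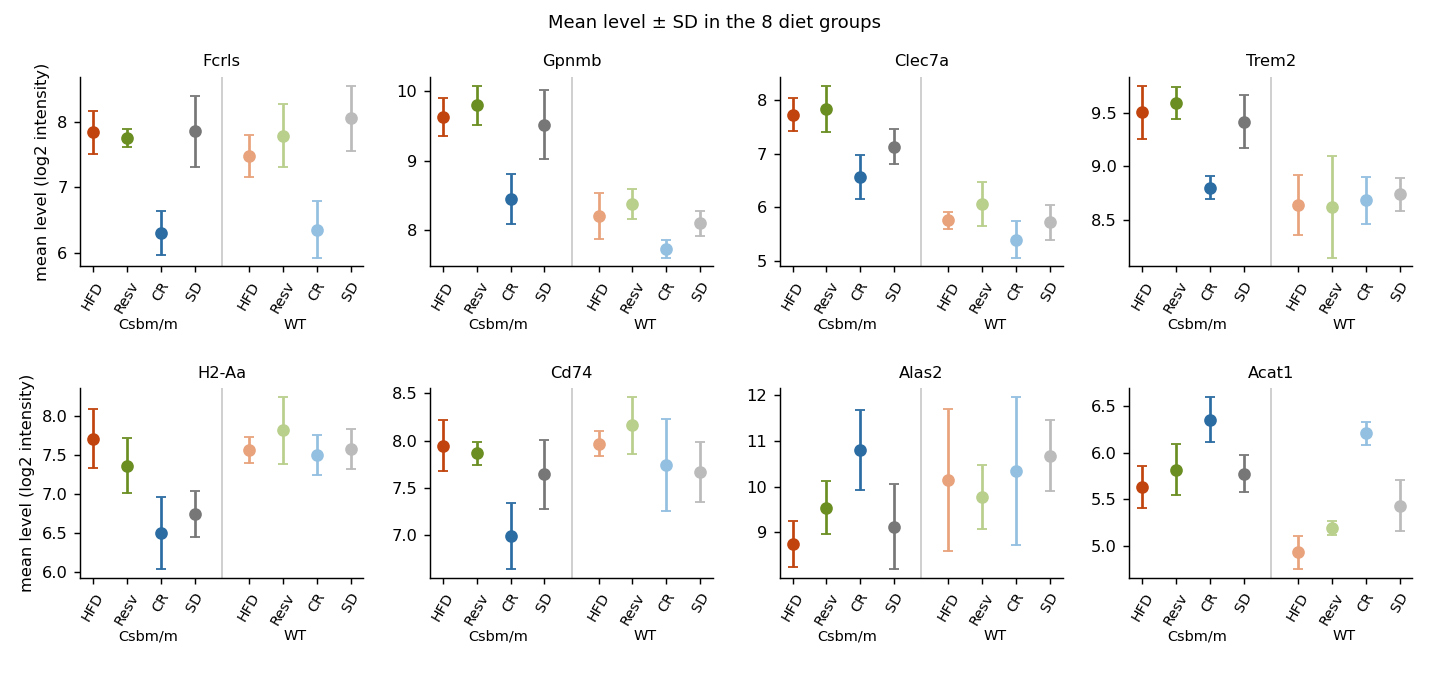
Mean level ± SD (log2 intensity, vertical axes that do not start at 0) of 8 genes on the high-fat (HFD), resveratrol (Resv), restricted (CR) and standard (SD) diets in Csb (left of each panel, n = 7, 6, 6 and 6) and WT (right, n = 4, 5, 4 and 4). Fcrls and Gpnmb are lowest under restriction in both genotypes, H2-Aa is lowest on the Csb restricted and standard diets while all WT groups lie between 7.50 and 7.82, and Alas2 spreads widely in WT.

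The restricted WT arrays stood near the Csb arrays, and apart from the high-fat and standard-diet WT arrays, for many of the probes called below. No probe for the mutated gene was at hand to check the labels of these arrays, so results that rest on them carry that doubt. By summed microglia markers the restricted WT arrays stood nearer the high-fat WT than the restricted Csb arrays, with medians of 4805, 4653 and 5731. Whether any label is wrong was not tested. The same contrast in WT mice called 457 probes (3.07%), 136 higher (0.914%) and 321 lower (2.16%) on the high-fat diet (29.8% higher, and 14% higher with the deposited z-scores). The count was 216 without high-fat WT array 1, 895 without high-fat WT array 2, 281 without high-fat WT array 4, 278 without restricted WT array 1 and 260 without restricted WT array 3. Only 8 probes were called in the same direction in both genotypes, which is 2.74% of the Csb calls and 1.75% of the WT calls. Over all probes 3.07% were called in WT and 1.96% in Csb, in either direction, so the overlap lay near these shares. The higher ones of the 8 were Fcrls (1.12 in WT, limma adjusted p = 0.0127), the thromboxane synthase Tbxas1, the histone H2bc6 and Dipk1c. The lower ones were Acat1 (-1.28 in WT, 1.39e-07, where no high-fat array detected it), Cfl1 (-0.99 in WT, 0.00149), Thsd1 and the chemokine Ccl25. Tbxas1 read 6.85, 6.98 and 7.06 on the high-fat and 5.91, 6.18 and 6.64 on the restricted Csb arrays (0.78 ± 0.14, adjusted p = 0.00234), and differed by 0.65 in WT (0.0332). H2bc6 differed by 0.54 in Csb and 0.65 in WT, Dipk1c by 0.49 and 0.59, Thsd1 by -0.66 and -0.83, and Ccl25 by -0.61 and -0.69. In Csb the calls for Dipk1c, Thsd1 and Ccl25 ended without restricted array 4 or high-fat array 7 and, for one or more of them, without restricted array 1, 3 or 6 or high-fat array 2, 3, 5 or 6. Of all Csb calls, 74.1% of the higher and 59.1% of the lower probes had the same sign in WT, against 53.5% of all probes.

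Gpnmb (0.47, adjusted p = 0.282), the first Clec7a probe (0.35, 0.517), Trem2 (-0.04, 0.94), C1qb (-0.03, 0.946), H2-Aa (0.06, 0.934), Alas2 (-0.20, 0.922) and Slc4a1 (-0.26, 0.884) were not called in WT. The disease-associated microglia list had 0 genes called higher and 1 lower in WT, with a median difference of -0.004. Its summed level, which weighs bright genes most, ran from 87298 to 90350 on the high-fat WT arrays. On the restricted WT arrays it ran from 73568 to 83149. In Csb the sums ran from 85855 to 97164 and from 77900 to 85978, in that order. Whether the diet difference itself depended on genotype was tested as a difference of differences, which called 197 probes (1.32%), 154 with a signed high-fat minus restricted difference that was higher in Csb than in WT (1.03%) and 43 with one that was lower (0.289%; 78.2% higher, and 92.8% higher with the deposited z-scores). A higher signed difference does not mean a larger effect in Csb, since it also arises where the gene was lower on the high-fat diet in WT alone. The count of 197 was 408 without high-fat WT array 2. H2-Aa was among the 197, with a diet difference larger by 1.14 in Csb (adjusted p = 0.0463), as were Ly86 (0.0449), Tnfrsf25 (-1.44, 0.0231), Srpk3 (-1.08, 0.0463) and Mnat1 (0.63, 0.0362). Without the probes that differ between restricted and standard-diet WT arrays, 8 probes were called for this dependence. Those left-out probes were picked with the restricted WT arrays that this contrast also uses, so a lower count was partly built in. The unadjusted limma p-values of H2-Aa (0.000597), Srpk3 (0.000589), Mnat1 (0.000406) and Tnfrsf25 (0.000227) are too high for a place among so few calls. The same holds for Ly86, whose adjusted p lies between those of Mnat1 and H2-Aa. Such a loss follows from the adjustment over the probes that remain and is no separate test of these genes. H2-Aa itself averaged 7.50 on the restricted and 7.58 on the standard-diet WT arrays. For Fcrls (0.42, 0.601), Gpnmb (0.72, 0.198), Trem2 (0.75, 0.0902), C1qb (0.61, 0.0623), Cd74 (0.73, 0.179), Alas2 (-1.85, 0.269) and Slc4a1 (-1.51, 0.344) the difference between genotypes was not called. In all, 19 probes were called both in Csb and for the dependence on genotype, and in 18 of them the WT difference had the opposite sign. Being called in both tests favours a WT difference of opposite sign, so that count is no separate result. The second Clec7a probe was 1 of the 18 (0.59 in Csb, -0.93 in WT, adjusted p = 9.35e-05 for the difference), but no high-fat or restricted WT array detected it.

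**Figure D4:**
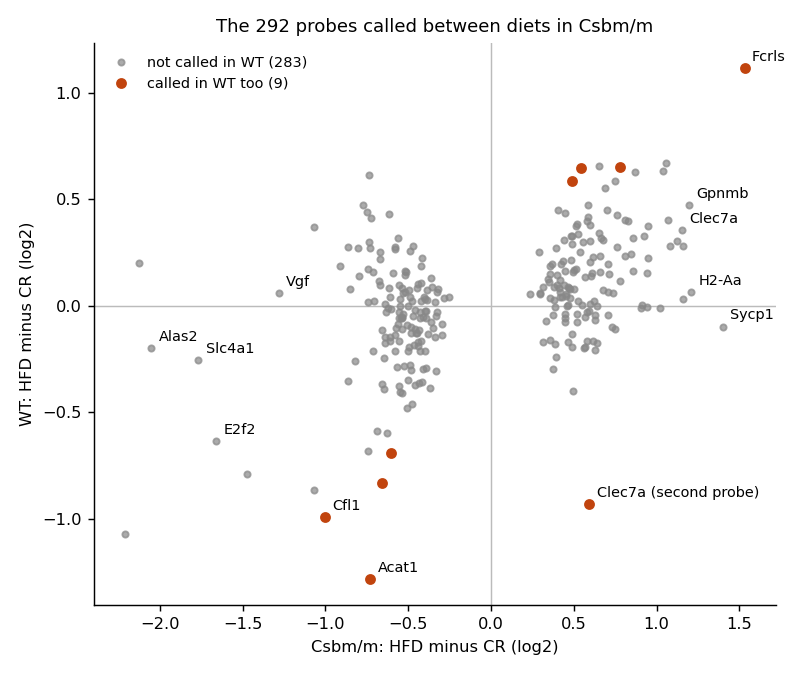
High-fat minus restricted difference (log2) in Csb (horizontal axis) against that in WT (vertical axis) for the 292 probes called in Csb, with the 9 that were also called in WT in red. Most points lie near 0 on the vertical axis, Fcrls stands out at the upper right and Cfl1 and Acat1 at the lower left, and the second Clec7a probe is the red point called in opposite directions.

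The genes with the largest dependence on genotype had small differences between diets in Csb, from 0.02 to 0.13, none called by limma. They were H2-Q1, a class I-like gene (2.26, limma adjusted p = 3.37e-13), Fam83g (2.18, 5.56e-10), Iftap (1.76, 3.57e-06), the phosphatase Ppm1j (1.72, 4.27e-07) and the zinc finger gene Zfp609 (1.70, 3.47e-08). H2-Q1 averaged 7.10 ± 0.09 on the high-fat and 6.99 ± 0.23 on the restricted Csb arrays, a difference of 0.11 (adjusted p = 0.57). In WT it averaged 4.77 ± 0.21 on the high-fat, 6.92 ± 0.10 on the restricted and 4.76 ± 0.14 on the standard-diet arrays (SD, n = 4 each), and no high-fat or standard-diet WT array detected it. For this gene the restricted WT arrays stood with the Csb arrays, apart from the other WT diets. The 321 probes called lower in WT on the high-fat diet showed the same layout as a set chosen by that contrast, with a median level of 6.33 or more in each of the 4 Csb groups and of 5.45 in high-fat, 6.42 in restricted and 5.57 in standard-diet WT arrays. Without the probes that differ between restricted and standard-diet WT arrays, 102 probes were called in WT and 8 for the dependence on genotype. Both contrasts share the restricted WT arrays with that choice of probes, so lower counts were partly built in.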

How the data were processed

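RNA of mouse cerebellum, labelled with biotin, was read in 1 colour on bead arrays of the type Illumina MouseRef-8 v2. The deposited table holds an average intensity per probe and array, not normalized per the file headers, and beside it a detection p-value per the file headers. The submitters' processing notes name GenomeStudio 1.9.0. What else was done is not given in the sources used here. The authors' deposited series matrix holds, as a score, the z-score of the log intensity within each array (column medians -0.482 to -0.384, mean 0, SD 1) and served as an alternative. All sample columns of the table were used. It gives no chip, position or scan date, so no batch could be entered.

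The 42 diet arrays were normalized together with the limma package, version 3.58.1, under R 4.3.3. Its neqc function corrected the background with the detection p-values, normalized quantiles and took log2 after an offset of 16. Probes with a detection p under 0.01 on at least 4 arrays were kept (14883 of 25697). All 8 diet groups entered 1 linear model (lmFit, eBayes, two-sided), and a probe was called at a Benjamini-Hochberg adjusted p under 0.05 over all probes. The number of arrays limits the precision. Where no array of the dimmer group detected a probe, its fold is a lower bound from the lowest level among detected probes, and log2 differences there are printed as fitted. GEO's platform annotation gave 1 gene to 23978 probes and none to 1719, and no symbol changed when checked by Entrez ID against RefSeq. In list counts a gene stands by its probe with the highest mean level. Marker sums add normalized intensities on the linear scale, 1 probe per gene. On simulated data with known changes in the high-fat Csb arrays, the fit recovered 48% of probes changed by 0.5, 90% by 1, 96% by 1.5 and 100% by 2 (log2, 50 probes each of 14883), with 8 false calls. The simulated noise was independent for each probe and array. It held no shared differences between arrays in brightness, background or tissue, so these shares do not gauge false calls in the measured data. Named genes were the 12 largest called differences in each direction, up to 4 called members of each pathway list or else its 2 lowest p-values, up to 5 with the largest genotype-by-diet difference and those called in both genotypes, besides called members of marker and added lists. The members, lists and alternatives were chosen with earlier results of these data known. Alternatives were other background corrections, normalizations, filters, fits and covariates and leaving out each array in turn.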

Additional observations from a re-analysis of the deposited data

Results flagged for a closer look

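For 16 of 168 sets of replicate values of the named probes and array measures (9.52%, where chance flags about 1 in 20), 1 high-fat or restricted Csb array stood apart from the rest of its group by Dixon's criterion. Among class II and microglial probes, H2-Aa read 5.63 on restricted array 3 against 6.49 to 6.91 on the others, and one H2-Ab1 probe 6.48 on high-fat array 6 against 7.31 to 7.78. For Clec7a, restricted array 6 read 5.78 (others 6.50 to 6.92) and, on the probe no restricted array detected, 5.35 (others 5.84 to 6.05), while high-fat array 3 read 7.42 on the second probe (others 6.68 to 6.93). C1qb read 10.75 on restricted array 6 (others 10.32 to 10.47). Among metabolic and clock genes, Elovl6 read 9.99 on high-fat array 6 (others 10.28 to 10.44) and 11.29 on restricted array 4 (others 10.47 to 10.64), Npas2 6.46 on high-fat array 5 (others 5.05 to 5.60), Qprt 5.72 on high-fat array 4 (others 6.07 to 6.26) and Slc2a4 7.31 on restricted array 3 (others 5.86 to 6.30). Mnat1 read 9.69 on restricted array 4 (others 9.98 to 10.07). Tnfrsf25 read 5.39 on high-fat array 5 (others 4.83 to 5.02), BC051142 8.22 on restricted array 3 (others 6.89 to 7.10) and Lum 6.70 on high-fat array 6 (others 7.06 to 7.26). High-fat array 3 correlated with its group at a median of 0.988, against 0.983 to 0.985 for the others.

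The diet difference depended on genotype, by limma's test of the difference of differences, for 10 of the named probes. It was larger in Csb than in WT by 1.14 for H2-Aa and 0.63 for Mnat1. For the second Clec7a probe the signed difference was higher in Csb by 1.53. The WT difference of that probe was larger in size and of opposite sign, and no high-fat or restricted WT array detected it. The diet difference was more negative in Csb for Tnfrsf25 (-1.44) and Srpk3 (-1.08). As given above, the calls for H2-Aa, Mnat1, Tnfrsf25 and Srpk3 did not hold without the probes that differ between restricted and standard-diet WT arrays. That alternative shares the restricted WT arrays with the contrast and is no separate test of these genes. The differences of 2.26 for H2-Q1, 2.18 for Fam83g, 1.76 for Iftap, 1.72 for Ppm1j and 1.70 for Zfp609 lay in the WT arrays, as described above.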

How the results depend on the processing

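Of 51 named probes called in Csb, 9 kept their call in each of 25 to 28 alternative settings: Fcrls, H2-Aa, Gpnmb, Id2, the first Clec7a probe, Cfl1, Acat1, the first Cd74 probe and C1qb. The other 42 lost it in at least 1 setting, and none of the 51 changed direction. Against 292 called probes in Csb, the deposited z-scores gave 193, the 2 groups fitted alone 115 (60.9% higher), the same with their own normalization 132 (59.8% higher), array weights 628 (61.6% higher against 49.0%), array background as a covariate 169 (138 higher and 31 lower, 81.7% higher), array brightness 68 (67.6% higher) and leaving out 1 array 91 to 454. In alternatives added after seeing the data, 39 were called without restricted arrays 3 and 4 (38 of them among the 292; 82.1% higher), 61 without 4 and 6 (54; 70.5% higher) and 82 without 3 and 6 (76; 70.7% higher). With the replicate number as a replicate block 187 were called, but same-numbered arrays do not pair, since their correlations ran from -0.18 to 0.29 and 2 of 6 correlated best with their own number (the replicate number of the titles; a second number in brackets on some high-fat columns, unexplained in the labels, was not used). In WT (457) the counts were 57 with the groups normalized and fitted alone, 226 fitted alone, 158 with a stricter filter, 2494 with no filter, 1574 with weights, 216 to 895 leaving out 1 array and 102 without the probes that differ between restricted and standard-diet WT arrays. For the dependence on genotype (197) they were 78 with a stricter filter, 959 with no filter, 704 with weights, 338 with background as a covariate, 134 to 408 leaving out 1 array and 8 in that added alternative. The added alternative left out probes picked with the same restricted WT arrays, so its lower counts were partly built in. Uncalled differences that changed sign were Zfp609 (-0.0096 with the replicate block and without high-fat array 7, -0.0040 with brightness, -0.0060 and -0.0033 without restricted array 1 or 5, up to 0.0331 leaving out 1 array), the third Ptprr probe (-0.0365 with background), Iftap (-0.0193 with brightness, -0.0304 to 0.125 leaving out 1 array) and the second Kcng4 probe (-0.0740 without restricted arrays 4 and 6, -0.0713 to 0.353 leaving out 1 array). The causes of these changes were not tested. Dim probes, class II genes among them, carry bounds or lie near the background.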
